A study of Mus musculus with 2 samples.

Results

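S phase and mitotic cells of the corneal epithelium were compared in single-cell transcriptomes from CycB1-GFP mice, a line that carries a green fluorescent reporter of Cyclin B1. The epithelium had been peeled off after Dispase digestion, dissociated with trypsin and sorted for live GFP-positive cells, so every cell came from a sort for the reporter, and there was no treated or unsorted group. The labels give 1 group of 2 replicates, and the barcodes fell into 2 libraries, called library 1 and library 2 here, with no link to the replicate numbers. The labels used here give no age or sex, no number of mice per library and no promoter for the reporter.

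Of 6752 barcodes, 6188 held 500 or more detected genes and less than 20% of UMIs from mitochondrial genes (a UMI, or unique molecular identifier, stands for 1 captured RNA molecule). Corneal cells had at least 5 UMIs of Krt12 plus Krt15 with a Krt12 share of them above 0.8, which 4125 cells met. Krt12 is the keratin of the corneal epithelium and Krt15 a keratin of the limbus, the border zone that holds its stem cells. S cells had at least 5 UMIs of Mcm3, Mcm5, Mcm6, Pcna, Ccne2 and Gins2 together and at least 3 times as many as of Ccnb1, Cdc20, Plk1, Cenpa, Aurka and Ube2c. Mitotic cells met the reverse. This gave 484 S cells (270 in library 1 and 214 in library 2) and 1680 mitotic cells (943 and 737), together 2164 cells or 32.0% of all barcodes. The rule selects on RNA, and the mitotic sum holds genes that are transcribed from G2 onwards, so "mitotic" covers G2 cells too.

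S cells made up 11.7% of corneal cells in library 1 (exact 95% binomial interval 10.4 to 13.1%) and 11.8% in library 2 (10.3 to 13.3%). Mitotic cells made up 40.9% (38.9 to 43.0%) and 40.5% (38.2 to 42.8%). These intervals cover counting error only, and the shares differed by less than that error between libraries. Another 605 corneal cells had a sum of 5 or more without a 3-fold lead of either sum, and 1356 had both sums under 5. At the edge of the rule, 85 S cells had exactly 5 UMIs of the S genes, and 100 cells that failed had 1 fewer. The same numbers for the mitotic sum were 63 and 79. The lead over the other sum was under 4-fold in 70 S and 133 mitotic cells, while 82 and 181 cells fell short with a lead of 2-fold to under 3-fold. The Krt12 share was 0.9 or less in 137 of the members.

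**Figure D1:**
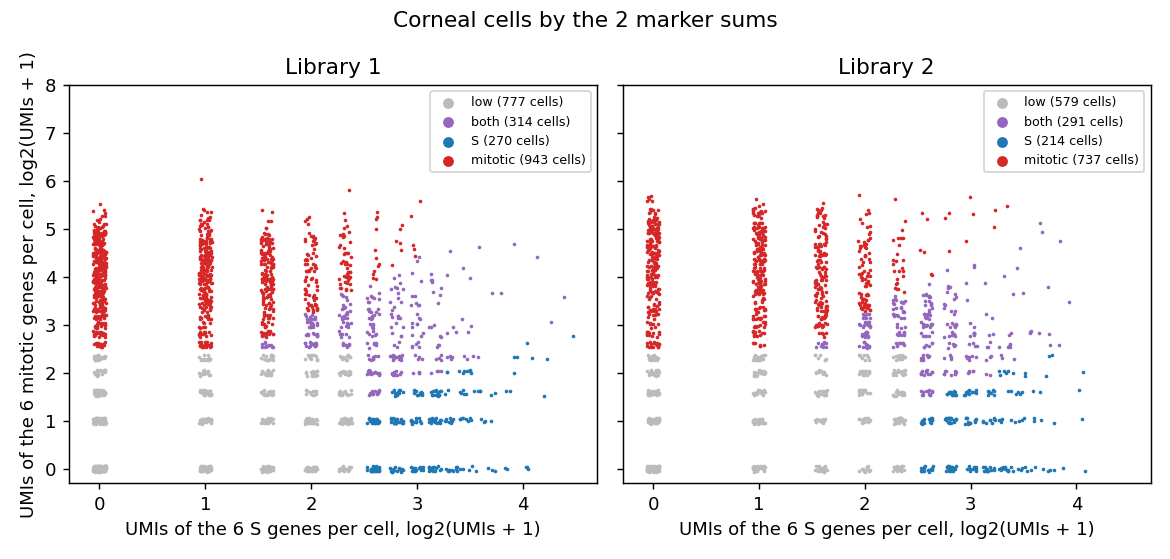
Each point is a corneal cell, placed by its UMIs of the 6 S genes (x axis) and of the 6 mitotic genes (y axis), both as log2(UMIs + 1) with a small random shift so that cells do not hide each other, 1 panel per library. The S cells (270 and 214) lie along the bottom right, the mitotic cells (943 and 737) along the top left, and cells with both sums lie between them.

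The cell cycle is driven by waves of transcription. E2F factors switch on the genes of DNA replication as a cell enters S phase, and the genes of chromosome segregation follow in G2 and mitosis, many of them through a short promoter element called the CHR (cell cycle homology region) that the DREAM and B-Myb complexes contact. The corneal epithelium is renewed by division of its basal cells, and cells that leave this layer take up the differentiation program of the surface. What was asked here is which genes outside this known cycle program differ between the 2 states in corneal cells.

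UMIs were summed per library and state, giving 4 sums of 1820025 and 6385689 UMIs (S and mitotic cells of library 1) and 1424379 and 5214329 UMIs (library 2) after the 14 genes of the rule had been taken out. Levels are given as CPM, a gene's UMIs scaled to a common total per sum with TMM factors, and differences as log2 fold changes of mitotic over S from edgeR, so a negative value is higher in S. The state was tested with the library as a block, which leaves 1 residual degree of freedom, and a gene was called at an adjusted p under 0.05. The labels do not say whether the libraries came from separate mice, so p-values are not shown to measure the spread between mice. They rest on how the state difference varied between these libraries. With 1 residual degree of freedom, each gene's variance was drawn toward a trend over all genes. The median S cell had 6282 and 6230.5 UMIs in libraries 1 and 2 and the median mitotic cell 6428 and 6917.

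The states were checked on cycle genes that the rule did not use. As these vary with the rule genes, their values describe the cells chosen and are not a test. All 10 S phase genes of the list (among them Mcm2, Cdc6, Slbp and Uhrf1) were higher in S cells, with a median log2 fold change of -2.13, and all 10 G2 and mitosis genes (among them Ccnb2, Cenpe and Tpx2) were higher in mitotic cells, with a median of 2.41. The most extreme cycle gene toward S was Ung, which removes uracil from DNA, at 56.8 CPM in S and 1.08 CPM in mitotic cells of library 1 and 67.3 and 1.64 CPM in library 2. Cenpf, a kinetochore protein, stood at 80.0 CPM in S and 999 CPM in mitotic cells of library 1 and 75.1 and 976 CPM in library 2. Neither gene's states overlapped. Within the corneal gate, Pax6, the transcription factor of the eye, was present in all 4 sums (350 to 573 CPM before TMM scaling), as were Aldh3a1 and Tkt, 2 enzymes that the cornea holds in bulk. Immune, keratocyte, endothelial and Schwann marker lists held 0 to 20 UMIs in any sum, with Lum, Kera, Lyz2, Tyrobp, Kdr and Cdh5 at 0 throughout. The melanocyte list (Dct, Pmel, Mlana) held 2 to 29 UMIs, and the conjunctival list 51.1 to 75.02 CPM with Muc5ac at 0.

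Of 10347 genes tested, 2067 (20%) were called. Toward mitotic cells 808 genes (7.81%) were higher and toward S cells 1259 (12.2%), and 2060 of the calls had the same sign in both libraries taken singly. Of the genes in a list of the known cycle, 63.1% were called. Outside that list 17.5% were called, 645 higher in mitotic and 1065 higher in S cells, of which 137 and 243 differed at least 2-fold. The split between the directions depends on the scaling: mitotic cells hold 39.1% of the calls with TMM, 40.2% with DESeq2 and 59.0% on plain library totals, a choice that moves the median log2 fold change of all genes from -0.01 to 0.08. Where a list named here has its lead turned by this choice, the counts on plain totals stand beside those with TMM. With DESeq2 480 genes were called and without the library block 389, all of them among the 2067, and of the 114 genes named here or ranked highest in a list 50 lost their call with DESeq2 and 70 without the block.

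The promoters of some called genes carried letters of the CHR or of an E2F site. The window ran from 250 bases before to 50 after the RefSeq start (GRCm38.p6), on both strands, and 8357 of the 10347 tested genes had a promoter in the table. TTTGAA or TTTAAA (CHR) was found in 19.2% of all these promoters and in 63.5% of cycle genes called higher in mitotic cells. Outside the cycle list it was found in 33.3% of genes at least 2-fold higher in mitotic cells (38 of 114), in 13.9% of those at least 2-fold higher in S cells and in 17.9% of genes not called. TTTGGCGC or TTTCCCGC (E2F) was found in 3.48% of all promoters, in 22.4% of cycle genes higher in S cells, in 6.97% of genes outside the list at least 2-fold higher in S and in 0.877% of those at least 2-fold higher in mitotic cells. CCAAT (NF-Y) was found in 39.5% of all promoters and in 50% of genes outside the list at least 2-fold higher in mitotic cells. Median GC content was 62% in the S group and 58.2% in the mitotic group, and its part in these shares was not tested. Genes outside the list include cycle-linked genes that it missed, Akirin2 and Ankle1 below among them. Their part in these shares was not tested either. A match is a run of letters and does not show a bound site. The first 4 sequences below are the 250 bases upstream of genes outside the cycle list that were higher in mitotic cells and hold a CHR word, and the last 2 belong to genes higher in S cells that hold an E2F word. They are written 5′ to 3′ on the gene's strand, with every match to the 3 motifs in capitals, and a match on the other strand reads as the reverse complement (TTCAAA for the CHR, GCGGGAAA for E2F, ATTGG for NF-Y). No 2 matches overlap in them.
Sun2, chr15:79742537-79742786, minus strand: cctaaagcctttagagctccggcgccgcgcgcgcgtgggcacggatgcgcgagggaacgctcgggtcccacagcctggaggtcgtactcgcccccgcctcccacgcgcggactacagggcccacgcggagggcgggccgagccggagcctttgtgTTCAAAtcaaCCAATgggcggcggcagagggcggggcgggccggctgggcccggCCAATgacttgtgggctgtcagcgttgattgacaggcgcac
Serpinb8, chr1:107589756-107590005, plus strand: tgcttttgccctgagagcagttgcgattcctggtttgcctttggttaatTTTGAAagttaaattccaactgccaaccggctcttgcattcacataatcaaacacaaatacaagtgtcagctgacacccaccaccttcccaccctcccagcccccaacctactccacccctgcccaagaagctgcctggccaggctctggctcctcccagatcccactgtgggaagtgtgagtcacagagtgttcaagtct
Akirin2, chr4:34550365-34550614, plus strand: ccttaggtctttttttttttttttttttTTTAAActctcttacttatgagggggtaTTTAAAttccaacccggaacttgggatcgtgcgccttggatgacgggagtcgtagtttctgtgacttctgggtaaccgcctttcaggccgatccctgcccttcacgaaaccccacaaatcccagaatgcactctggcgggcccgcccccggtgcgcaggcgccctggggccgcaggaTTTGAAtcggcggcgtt
Ankle1, chr8:71405762-71406011, plus strand: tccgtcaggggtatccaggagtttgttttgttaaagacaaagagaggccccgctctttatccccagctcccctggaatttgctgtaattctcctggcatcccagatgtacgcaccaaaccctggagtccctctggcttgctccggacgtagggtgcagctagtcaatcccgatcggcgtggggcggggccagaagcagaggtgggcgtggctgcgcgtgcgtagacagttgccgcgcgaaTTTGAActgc
Ppat, chr5:76951579-76951828, minus strand: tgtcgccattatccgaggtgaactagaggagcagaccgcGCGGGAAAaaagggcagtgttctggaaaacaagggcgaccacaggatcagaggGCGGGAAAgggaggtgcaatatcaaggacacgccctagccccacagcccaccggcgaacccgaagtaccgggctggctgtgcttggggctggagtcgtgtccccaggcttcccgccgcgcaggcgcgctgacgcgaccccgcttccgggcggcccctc
Nolc1, chr19:46075597-46075846, plus strand: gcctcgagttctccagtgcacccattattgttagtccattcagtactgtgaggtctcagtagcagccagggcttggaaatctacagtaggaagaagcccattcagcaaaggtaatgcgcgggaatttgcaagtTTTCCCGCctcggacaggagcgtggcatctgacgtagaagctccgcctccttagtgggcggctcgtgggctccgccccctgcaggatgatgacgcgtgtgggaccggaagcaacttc
In Sun2 the CHR word lies a few bases upstream of a CCAAT box. Akirin2 holds CHR words at 3 places and Ppat E2F words at 2. Among the 12 genes with the largest differences toward mitotic cells, described next, 6 of 12 promoters hold a CHR word and 0 an E2F word, and among the 10 promoters found for the 12 largest toward S cells 1 holds a CHR word and 2 an E2F word.

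Outside the cycle list, the genes with the largest differences toward mitotic cells were Serpinb8, Mettl27, Spsb2, Ptms, Zbtb8b, Uevld, Ankle1, Odf2, Akirin2, Rnf26, Rsbn1 and Ccdc18, with log2 fold changes from 2.10 down to 1.36. Serpinb8, a serine protease inhibitor of the intracellular clade, stood at 16.2 CPM in S and 71.3 CPM in mitotic cells of library 1 and 21.3 and 89 CPM in library 2. Its log2 fold change was 2.10 (SE 0.17, adjusted p = 2.59e-13), and both mitotic sums lay above both S sums. Ptms (parathymosin), a small acidic nuclear protein that binds the linker histone H1, was the most abundant of the 12, at 126 CPM in S and 433 CPM in mitotic cells of library 1 and 147 and 471 CPM in library 2. Its log2 fold change was 1.73 (SE 0.09, adjusted p = 2.18e-19). Mettl27, which has a methyltransferase fold, stood at 9.85 CPM in S and 40.8 CPM in mitotic cells of library 1 and 10.6 and 41.1 CPM in library 2, a log2 fold change of 2.0 (SE 0.23, adjusted p = 4.28e-09). Spsb2, a SOCS-box adaptor of a ubiquitin ligase, stood at 12.2 CPM in S and 37.8 CPM in mitotic cells of library 1 and 8.50 and 41.5 CPM in library 2, and its log2 fold change was 1.91 (SE 0.24, adjusted p = 1.97e-08).

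Several of the 12 have known roles at the centrosome or the nucleus. Akirin2, which carries proteasomes into the new nuclei after division, stood at 49.3 CPM in S and 132 CPM in mitotic cells of library 1 and 41.8 and 123 CPM in library 2, with a log2 fold change of 1.48 (SE 0.13, adjusted p = 2.47e-12). Odf2, a protein of the centriole's appendages, stood at 27.8 CPM in S and 64.9 CPM in mitotic cells of library 1 and 24.1 and 83.7 CPM in library 2. Ccdc18, a protein of the centriolar satellites, stood at 31.3 CPM in S and 73 CPM in mitotic cells of library 1 and 19.8 and 59.1 CPM in library 2. These 2 belong to the centrosome and are cycle-linked genes that the cycle list had missed. Ankle1, an endonuclease that cuts DNA bridges between daughter cells, was low, at 10.4 CPM in S and 26.2 CPM in mitotic cells of library 1 and 9.92 and 35.3 CPM in library 2, and its log2 fold change was 1.57 (SE 0.24, adjusted p = 2.62e-06). Akirin2 and Ankle1 act at division, so they too are cycle-linked genes that the list had missed. Rnf26, a ubiquitin ligase of the endoplasmic reticulum that holds endosomes near the nucleus, had a log2 fold change of 1.41 (SE 0.20, adjusted p = 4.19e-07). Zbtb8b, Uevld and Rsbn1, whose roles are less well known, had 1.72, 1.64 and 1.40. In none of the 12 did a mitotic sum overlap an S sum, which their choice as the largest differences made likely.

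The 12 largest toward S cells were Arl6ip6, Samd1, Zmynd19, Chek1, Atad5, Usp37, Mb21d1, Wtip, Lrr1, Rnf168, Nsd2 and Tfrc, with log2 fold changes from -2.06 to -1.47. Chek1 (the kinase of the replication checkpoint), Atad5 (which unloads the Pcna clamp), Lrr1 (which helps to remove the helicase where replication ends) and Usp37 (a deubiquitinase with cyclin A among its substrates) are known replication or cycle genes that the list had missed. Atad5 stood at 71.9 CPM in S and 18.6 CPM in mitotic cells of library 1 and 82.2 and 23.5 CPM in library 2, and Chek1 at 49.3 CPM in S and 13 CPM in mitotic cells of library 1 and 51.7 and 13.5 CPM in library 2. Arl6ip6, a membrane protein, stood at 64.3 CPM in S and 16.4 CPM in mitotic cells of library 1 and 63.1 and 14 CPM in library 2, and its log2 fold change was -2.06 (SE 0.17, adjusted p = 3.53e-13). Neither its S sums nor those of Atad5 and Chek1 overlapped the mitotic sums, which their choice as the largest differences made likely.

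Chromatin and DNA damage genes followed. Samd1, which binds unmethylated CpG islands, stood at 42.3 CPM in S and 8.68 CPM in mitotic cells of library 1 and 34 and 11.1 CPM in library 2, a log2 fold change of -1.97 (SE 0.20, adjusted p = 2.45e-10). Nsd2, which dimethylates histone H3 at lysine 36, stood at 119 CPM in S and 49 CPM in mitotic cells of library 1 and 176 and 55 CPM in library 2, a log2 fold change of -1.48 (SE 0.12, adjusted p = 1.05e-13). Rnf168, the ubiquitin ligase that marks histones beside double-strand breaks, had a log2 fold change of -1.52 (SE 0.14, adjusted p = 4.05e-12). Mb21d1 encodes cGAS, the sensor of DNA in the cytoplasm, and stood at 38.2 CPM in S and 12.9 CPM in mitotic cells of library 1 and 42.5 and 14.7 CPM in library 2. Tfrc, the transferrin receptor through which cells take up iron, stood at 55.1 CPM in S and 19.2 CPM in mitotic cells of library 1 and 22.7 and 8.92 CPM in library 2, so that its S level in library 2 was near its mitotic level in library 1. Its log2 fold change within libraries was -1.47 (SE 0.18, adjusted p = 3.32e-08). Wtip, a LIM protein of cell junctions, and Zmynd19 had -1.55 and -1.93.

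**Figure D2:**
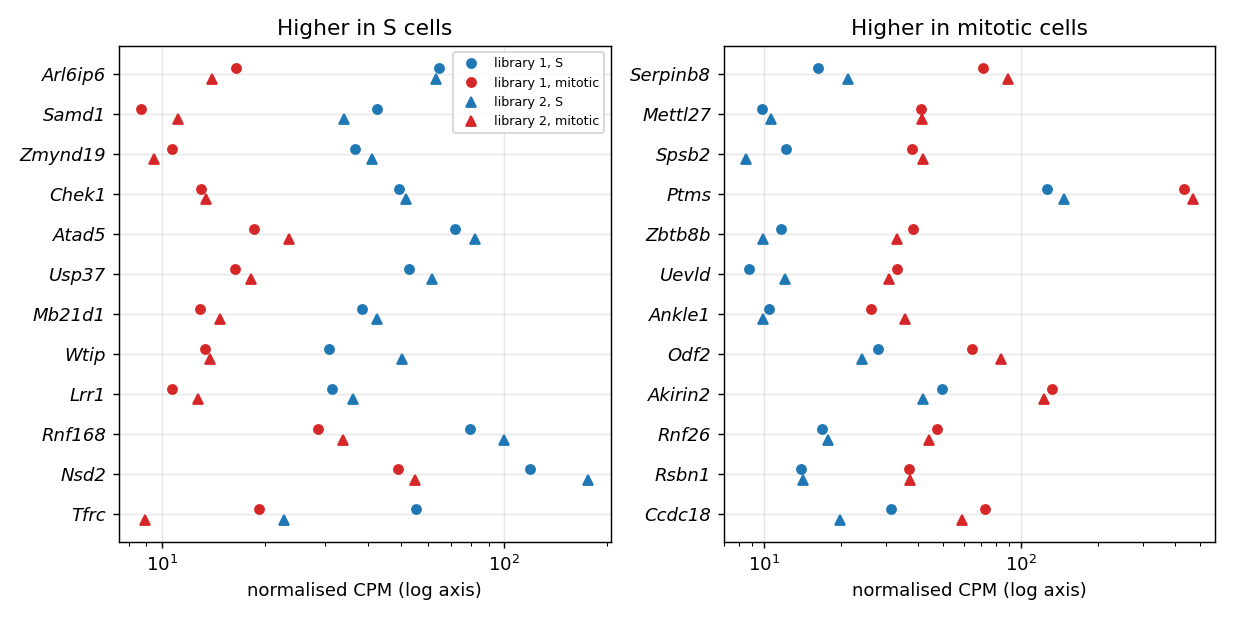
Normalised CPM (log axis) of the 12 genes outside the cycle list with the largest log2 fold change toward S cells (left) and toward mitotic cells (right), with circles for library 1 and triangles for library 2, blue for S and red for mitotic cells. Within each library the 2 states stand apart for all 24 genes, which were chosen as large differences of the same sign in both libraries. The S level of Tfrc in library 2 (22.7 CPM) lies near its mitotic level in library 1 (19.2 CPM).

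Cells that express both sums lay between the states. In both libraries all 12 genes higher in S and all 12 higher in mitotic cells had a level in the both-sum cells between those of S and mitotic cells, as had 9 and 11 of them in the cells with both sums low. Levels here are CPM without TMM scaling. This is a description, since the both-sum cells were defined by the same marker genes. The median both-sum cell held 7820 and 7056 UMIs in libraries 1 and 2, more than the median S or mitotic cell. Both-sum cells can include S and mitotic cells captured together, whose levels would also lie between, and their part was not tested. The increase of Serpinb8 lay mostly on the mitotic side, with 15.3, 25.4 and 71.8 CPM in S, both-sum and mitotic cells of library 1 and 21, 28.7 and 93.5 in library 2. The same held for Ptms, with 119, 159 and 436 CPM in S, both-sum and mitotic cells of library 1 and 146, 209.5 and 495 in library 2. Ppat, which catalyses the first committed step of purine synthesis, was already lower in both-sum than in S cells, with 49.3, 28.5 and 11.9 CPM in S, both-sum and mitotic cells of library 1 and 58.1, 31.3 and 17.2 in library 2. Vangl1 had 13.7, 24.2 and 60.3 CPM in S, both-sum and mitotic cells of library 1 and 18.2, 19.3 and 65.8 in library 2, so that S and both-sum cells of library 2 stood close.

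**Figure D3:**
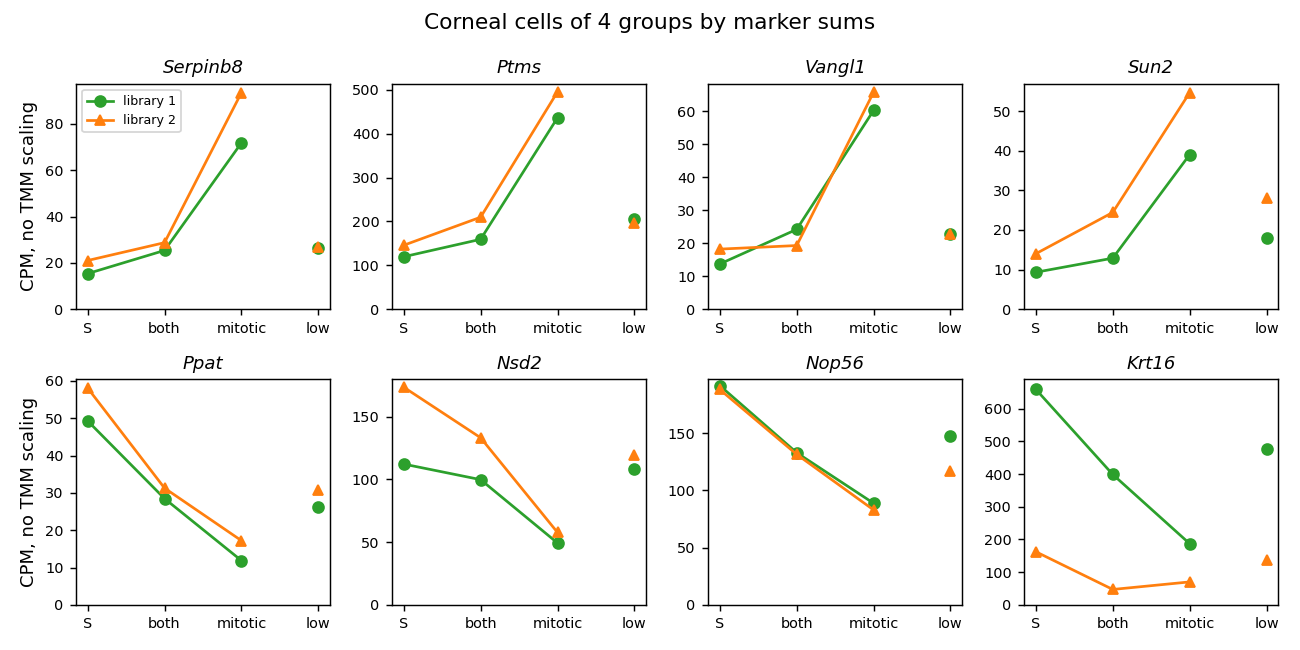
CPM without TMM scaling of 8 genes in S, both-sum, mitotic and low-sum corneal cells, with green circles for library 1 and orange triangles for library 2. Serpinb8, Ptms, Vangl1 and Sun2 are highest in mitotic cells, Ppat, Nsd2 and Nop56 are highest in S cells, and Krt16 differs more between libraries than the other 7.

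Genes that make the building blocks of DNA and RNA were higher in S cells. Of 48 genes of one-carbon, nucleotide, serine and polyamine synthesis tested, 29 were called higher in S and 0 higher in mitotic cells, with a median log2 fold change of -0.53. Ppat stood at 52.2 CPM in S and 11.8 CPM in mitotic cells of library 1 and 58.8 and 16.4 CPM in library 2, a log2 fold change of -1.99 (SE 0.18, adjusted p = 2.46e-12). Dctd, the deaminase that supplies dUMP for thymidylate, stood at 31.3 CPM in S and 13.2 CPM in mitotic cells of library 1 and 37.6 and 7.46 CPM in library 2, and its log2 fold change was -1.70 (SE 0.22, adjusted p = 5.8e-08). Srm, spermidine synthase, stood at 86.9 CPM in S and 37.2 CPM in mitotic cells of library 1 and 73 and 29.3 CPM in library 2, with -1.26 (SE 0.14, adjusted p = 1.12e-09). On plain library totals 23 members were called toward S, with DESeq2 13 and without the library block 8, and 0 toward mitotic cells under any of these 3 settings.

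Ribosome production followed the same direction. Of 68 genes of ribosome biogenesis and the nucleolus, 34 were higher in S and 0 in mitotic cells, with a median of -0.41. Nop56, a core protein of the box C/D snoRNPs that guide rRNA methylation, stood at 203 CPM in S and 88.2 CPM in mitotic cells of library 1 and 191 and 79 CPM in library 2, a log2 fold change of -1.23 (SE 0.10, adjusted p = 3.5e-13). Nolc1, a nucleolar phosphoprotein that binds snoRNPs, stood at 162 CPM in S and 69.4 CPM in mitotic cells of library 1 and 135 and 68.6 CPM in library 2, with -1.11 (SE 0.11, adjusted p = 1.03e-10). Rrp1b, a nucleolar protein, had -1.19 (SE 0.21, adjusted p = 2.78e-05), from -1.65 in library 1 and -0.67 in library 2. DESeq2 called 7 members toward S and the fit without the library block 5, while on plain totals 30 were called toward S and 1 toward mitotic cells.

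Cytosolic ribosomal proteins moved by little and together. They took 25.2% of the UMIs of S cells and 23.2% of those of mitotic cells in library 1, and 25.1% and 21.8% in library 2. Of 80 genes tested 79 were called higher in S, with a median of -0.24 and a lowest value of -0.45 for Rps18. Rps18 stood at 4457 CPM in S and 3546 CPM in mitotic cells of library 1 and 3618 and 2438 CPM in library 2. Ribosomal protein genes have near-identical copies elsewhere in the genome that the counting could split, so single members are uncertain. Because the differences are small, the count depends on the scaling (30 on plain totals, 23 with DESeq2, 0 without the library block), while no member was called in the other direction under any of them. The mitochondrial ribosome did not share one direction: 12 of 77 genes were higher in S and 1 in mitotic cells. Over all genes tested, 12.2% and 7.81% were, so the S count is near that share. The list's median of -0.09 became 0.001 on plain totals, where 10 and 7 were called. Mrpl18 had -0.65 (SE 0.09, adjusted p = 4.1e-07) and Mrps33 0.30 (SE 0.10, adjusted p = 0.0358).

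**Figure D4:**
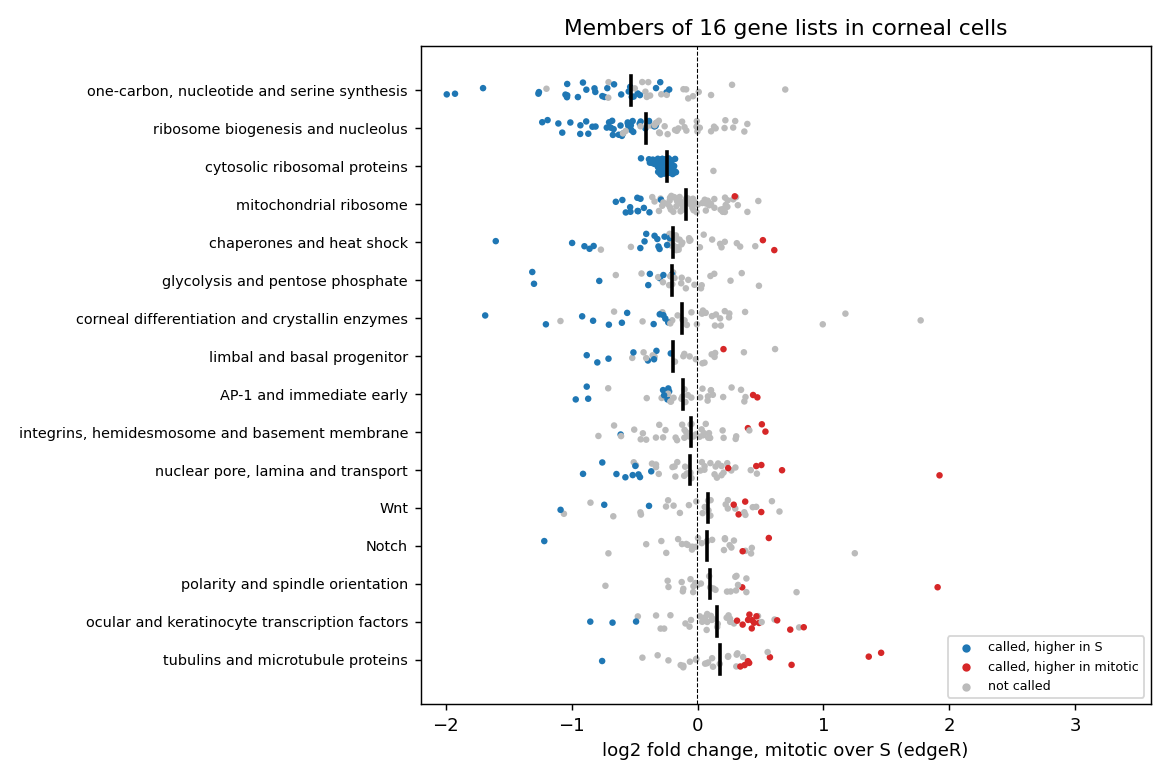
Each point is a tested member of 1 of 16 gene lists, at its log2 fold change of mitotic over S cells (x axis), blue where called higher in S, red where called higher in mitotic and grey where not called, with a black bar at the list's median and a dashed line at the median of all genes. The lists of nucleotide synthesis (median -0.53) and ribosome biogenesis (-0.41) lie to the left, and those of tubulins (0.18) and ocular transcription factors (0.16) to the right.

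Chaperones and sugar metabolism had more calls toward S. Of 47 chaperones tested, 15 were higher in S and 2 in mitotic cells, against 12.2% and 7.81% of all genes tested. The mitochondrial chaperonin Hspd1 stood at 479 CPM in S and 248 CPM in mitotic cells of library 1 and 348 and 168 CPM in library 2, a log2 fold change of -1.0 (SE 0.08, adjusted p = 2.68e-13), and the constitutive cytosolic chaperone Hspa8 at 1989 CPM in S and 1055 CPM in mitotic cells of library 1 and 1616 and 877 CPM in library 2, with -0.90 (SE 0.07, adjusted p = 8.64e-15). Hsp90b1, the Hsp90 of the endoplasmic reticulum, was higher in mitotic cells, at 473 CPM in S and 678 CPM in mitotic cells of library 1 and 377 and 617 CPM in library 2, with 0.61 (SE 0.08, adjusted p = 3.11e-08), and so was Dnajb4, with a log2 fold change of 0.52 (0.28 in library 1 and 0.91 in library 2 taken alone). DESeq2 called 5 chaperones toward S and the fit without the library block 2. Among 30 genes of glycolysis and the pentose phosphate route, 8 were higher in S and 0 in mitotic cells. Aldoa, an aldolase of glycolysis, stood at 521 CPM in S and 316 CPM in mitotic cells of library 1 and 244 and 134 CPM in library 2, with -0.78 (SE 0.08, adjusted p = 5.59e-10), and both libraries moved alike although their levels differed. Gpi1 and Pgam1 had -0.38 and -0.39. Of these sugar metabolism genes DESeq2 and the fit without the block each called 1 toward S.

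Signals of growth control were split. Of 21 genes of the EGF receptor and its ligands 4 were called in each direction (6 toward mitotic and 4 toward S cells on plain totals). With TMM, 7.81% of all genes tested were called toward mitotic and 12.2% toward S cells. Both receptors called were higher in mitotic cells, Erbb2 with 0.63 (SE 0.21, adjusted p = 0.0294) and Erbb3 with 0.59 (SE 0.17, adjusted p = 0.00824). For Erbb2 the libraries taken alone gave 0.41 in library 1 and 0.87 in library 2. Egfr itself was not called, with -0.01 (SE 0.12, adjusted p = 0.981). The ligand Hbegf, at 78.8 CPM in S and 41.1 CPM in mitotic cells of library 1 and 69.4 and 38.2 CPM in library 2, and the ligand Nrg1, at 92.1 CPM in S and 58.7 CPM in mitotic cells of library 1 and 107 and 77.3 CPM in library 2, were higher in S cells, with -0.90 (SE 0.14, adjusted p = 1.73e-06) and -0.56 (SE 0.12, adjusted p = 0.000489). Trp53, which encodes p53, was higher in S cells, at 148 CPM in S and 90.4 CPM in mitotic cells of library 1 and 141 and 74.4 CPM in library 2, with -0.81 (SE 0.11, adjusted p = 1.54e-07), while of the 24 genes in the list of p53 and its targets 2 were called toward S and 1 toward mitotic cells, which turned to 1 and 2 on plain totals. In the lists of the Notch, Wnt and YAP pathways, 3 of 29, 7 of 34 and 3 of 26 genes were called in either direction, near the 20% of all genes for Wnt and below it for the others with TMM. This reading depends on the scaling: on plain totals, where 2249 of all 10347 genes were called, the calls toward mitotic and S cells were 4 and 1 for Notch, 9 and 2 for Wnt and 8 and 1 for YAP. Fzd6, a Wnt receptor of the planar polarity branch, had 0.51 (0.72 in library 1 and 0.28 in library 2 taken alone), Hes1, a target of Notch, 0.36, and Amotl1, a partner of YAP, 0.62.

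Genes of cell architecture differed by list. Over all genes tested, 7.81% were called toward mitotic and 12.2% toward S cells. Of 31 tubulins and microtubule proteins 8 were higher in mitotic cells and 1 in S cells, with a median of 0.18, and 12 were called toward mitotic cells on plain totals, 4 with DESeq2 and 0 without the library block. Tuba1c, an alpha tubulin, stood at 119 CPM in S and 253 CPM in mitotic cells of library 1 and 53.9 and 224 CPM in library 2, a log2 fold change of 1.46 (SE 0.19, adjusted p = 0.00118) that was larger in library 2. Tubb6, a beta tubulin, had 0.75 (SE 0.21, adjusted p = 0.00899), from 0.41 in library 1 and 1.62 in library 2. Tubulin genes are close copies of each other whose reads the counting could split, so single members are uncertain. Map4, which binds along microtubules, was higher in S cells with -0.76 (SE 0.14, adjusted p = 7.31e-05). Of 47 genes of the actin cortex and contractility 4 were higher in mitotic and 6 in S cells, near the shares of all genes, with a median of -0.08. These counts turned to 7 and 3 on plain totals. Arpc1b, a subunit of the Arp2/3 complex that nucleates actin branches, was higher in S, at 406 CPM in S and 284 CPM in mitotic cells of library 1 and 309 and 224 CPM in library 2, with -0.49 (SE 0.08, adjusted p = 9.25e-06). Cdc42ep4, an effector of the GTPase Cdc42, was higher in mitotic cells, with 0.58 (SE 0.14, adjusted p = 0.00305). Sun2, which joins the inner nuclear membrane to the cytoskeleton, stood at 9.85 CPM in S and 38.8 CPM in mitotic cells of library 1 and 14.2 and 52 CPM in library 2, with 1.92 (SE 0.22, adjusted p = 3.39e-09). The nuclear pore and lamina list that holds it had 5 of 47 genes higher in mitotic and 9 in S cells, which turned to 8 and 5 on plain totals. The pore protein Nup43 was higher in S, with -0.91 (SE 0.15, adjusted p = 6.58e-06), as were the import receptors Kpna3 and Ipo5, with -0.76 and -0.64. The pore membrane protein Pom121 was higher in mitotic cells, with 0.67 (SE 0.15, adjusted p = 0.000766).

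Vangl1, a planar cell polarity protein that sits in the membrane, was among the largest differences of any list, at 14.5 CPM in S and 59.8 CPM in mitotic cells of library 1 and 18.4 and 62.6 CPM in library 2, with 1.91 (SE 0.19, adjusted p = 6.09e-11). In the list of polarity and spindle orientation that holds it, Gnai3, a G protein subunit that anchors the spindle's cortical complex, was the only other gene called of 27 with TMM, with 0.36 (SE 0.12, adjusted p = 0.0246), while 5 were called on plain totals. The 2 calls with TMM are near the 7.81% of all genes called toward mitotic cells. Golgi and endoplasmic reticulum shape genes had 7 of 42 higher in mitotic and 3 in S cells, against 1 and 1 with DESeq2 and 0 and 1 without the library block. Over all genes tested with TMM, the shares were 7.81% and 12.2%. The atlastins Atl2 and Atl3, which fuse tubules of the endoplasmic reticulum, had opposite signs. Atl3 stood at 52.7 CPM in S and 22.6 CPM in mitotic cells of library 1 and 56 and 21.3 CPM in library 2 and was higher in S, with -1.30 (SE 0.17, adjusted p = 5.95e-08). Atl2 stood at 19.7 CPM in S and 35.7 CPM in mitotic cells of library 1 and 22 and 33.7 CPM in library 2 and was higher in mitotic cells, with 0.74 (SE 0.20, adjusted p = 0.0056). Golga2, a Golgi matrix protein, had 0.66. Ndufaf3, which helps to assemble complex I of the respiratory chain, had 1.26 (SE 0.18, adjusted p = 6.27e-07) in a list of 89 genes where 3 were called toward mitotic and 7 toward S cells, which turned to 4 and 2 on plain totals. With TMM both counts of this list lie below the shares of all genes.

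Among the regulators of corneal identity that were called, more were higher in mitotic than in S cells. Of 45 ocular and keratinocyte transcription factors 12 were higher in mitotic and 3 in S cells, with a median of 0.16 (18 and 3 on plain totals, 3 and 0 with DESeq2, 0 and 0 without the library block). The shares over all genes tested with TMM were 7.81% and 12.2%. With the cells of the states matched on their share of Krt14, the keratin of basal cells, 7 and 5 of 43 were called, with a median of 0.18. This alternative was chosen after seeing the data. Cells matched on total UMIs gave 7 and 3 of 43, with a median of 0.21. Ehf, an ETS factor of epithelia, stood at 247 CPM in S and 389 CPM in mitotic cells of library 1 and 283 and 432 CPM in library 2, with 0.63 (SE 0.08, adjusted p = 6.64e-08). Foxc1 had 0.49 (SE 0.14, adjusted p = 0.00739) and Id4, an inhibitor of bHLH factors, 0.74 (SE 0.22, adjusted p = 0.0129). Pax6, called as well, had 0.43 (SE 0.08, adjusted p = 3e-05), and it is a member of the marker list. The 3 toward S were Cebpd, with -0.85 (SE 0.18, adjusted p = 0.00057), Klf10 with -0.68 and Id1 with -0.49. For Id1 the libraries taken alone gave -0.62 in library 1 and -0.27 in library 2.

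Of the differentiation, basal and stress genes that were called, most were higher in S cells. The basal keratin Krt14 moved with the state in library 1. Krt14 took a median of 0.557% of a cell's UMIs in S and 0.329% in mitotic cells of library 1, against 0.266% and 0.267% in library 2. The 4 limbal markers Krt14, Gpha2, Ifitm3 and Cd63 together held 9638 CPM in S and 6539 CPM in mitotic cells of library 1 and 4192 and 4145 CPM in library 2. Most of this was Krt14, so the sum largely repeats it. The 4 corneal markers Pax6, Aldh3a1, Tkt and Clu together held 13160 CPM in S and 15353 CPM in mitotic cells of library 1. In library 2 they held 20753 and 20644 CPM. Most of that was Aldh3a1 and Tkt, while Clu was lower in mitotic cells of both libraries. On totals that keep the rule's genes, S and mitotic cells of library 1 held 8518 and 5585 CPM of Krt14. For Ifitm3 they held 905 and 797, for Gpha2 42.0 and 33.6 and for Cd63 14.5 and 10.6 CPM. Of 41 genes of corneal differentiation 12 were higher in S and 0 in mitotic cells, against 11 and 1 on plain totals, 4 and 0 with DESeq2 and 0 and 0 without the library block. The shares over all genes tested with TMM were 12.2% toward S and 7.81% toward mitotic cells. Krt16, a keratin that epithelia make under stress, stood at 697 CPM in S and 186 CPM in mitotic cells of library 1 and 164 and 66.8 CPM in library 2, with -1.69 (SE 0.10, adjusted p = 5e-14). It was higher in S in both libraries, and its level in library 1 was far above that in library 2. Ecm1, a secreted matrix protein of the epidermis, stood at 78.2 CPM in S and 44.8 CPM in mitotic cells of library 1 and 57.4 and 31.5 CPM in library 2, with -0.83 (SE 0.14, adjusted p = 1.57e-05). Krt17, a stress keratin too, had -0.60 (SE 0.12, adjusted p = 0.00166), from -0.84 in library 1 and -0.12 in library 2.

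Among 26 limbal and basal progenitor genes 8 were higher in S and 1 in mitotic cells (7 and 4 on plain totals, 1 and 0 with DESeq2, 0 and 0 without the library block). For this list and those below, the shares over all genes tested with TMM were 12.2% toward S and 7.81% toward mitotic cells. S100a9, a subunit of the antimicrobial calprotectin, stood at 277 CPM in S and 202 CPM in mitotic cells of library 1 and 17 and 8.74 CPM in library 2, low in library 2, with -0.51 (SE 0.12, adjusted p = 0.00193), from -0.46 in library 1 and -0.95 in library 2. Igfbp2, a binding protein of insulin-like growth factors, had -0.80 (SE 0.18, adjusted p = 0.00118), from -0.47 in library 1 and -1.25 in library 2. Socs3, an inhibitor of cytokine signalling, had -0.88 (SE 0.18, adjusted p = 0.00026). Cells of the states matched on their share of Krt14 gave -0.04 for Krt17 (adjusted p = 0.838), -0.08 for S100a9 (0.752) and -0.55 for Socs3 (0.0578), so that these 3 were no longer called. Over all alternatives their adjusted p ranged from 4.37e-26 to 0.838 for Krt17, from 5.69e-08 to 0.944 for S100a9 and from 1.49e-06 to 0.214 for Socs3. Krt16 was still called in the matched cells, at -1.01, and its adjusted p ranged from 8.96e-79 to 0.509. Of 36 immediate early genes 8 were higher in S and 2 in mitotic cells. This direction turned to 2 and 5 on plain totals, and to 1 and 5 when other cycle genes defined the states. DESeq2 called 0 toward S and 1 toward mitotic cells. Fosb stood at 1193 CPM in S and 985 CPM in mitotic cells of library 1 and 281 and 233 CPM in library 2, with -0.27 (SE 0.07, adjusted p = 0.00609), and its libraries differed more than its states. Of 38 antioxidant genes 12 were higher in S and 3 in mitotic cells, which became 3 and 4 on plain totals. Gclm, which limits the rate of glutathione synthesis as a subunit of its ligase, had 0.63 (SE 0.11, adjusted p = 3.24e-05), and Gsr, glutathione reductase, -0.63 (SE 0.12, adjusted p = 0.000174).

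The same contrast was made in the epithelial cells that the corneal gate left out, which have at least 5 UMIs of the keratin pair and a Krt12 share of 0.8 or less. They numbered 1947, with 174 S and 989 mitotic cells, so this comparison has fewer UMIs. Of 9211 genes tested there, 882 (9.58%) were called, 395 higher in mitotic (4.29%) and 487 higher in S cells (5.29%). Of the 1943 corneal calls that were tested in both sets, 674 (34.7%) were also called with the same sign in the other cells, which is 77.9% of the 865 calls made there, and 1 was called with the opposite sign. The 2 sets share their libraries and the marker rule but no cells. Of the 24 largest genes, all kept their direction in the other cells, where 12 of the 12 toward S and 9 of the 12 toward mitotic cells were called. Serpinb8 stood there at 18 CPM in S and 67.4 CPM in mitotic cells of library 1 and 9.87 and 86.1 CPM in library 2, and Ptms at 282 CPM in S and 622 CPM in mitotic cells of library 1 and 274 and 864 CPM in library 2. Sun2 was at 8.01 CPM in S and 48.9 CPM in mitotic cells of library 1 and 7.90 and 59.5 CPM in library 2.

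**Figure D5:**
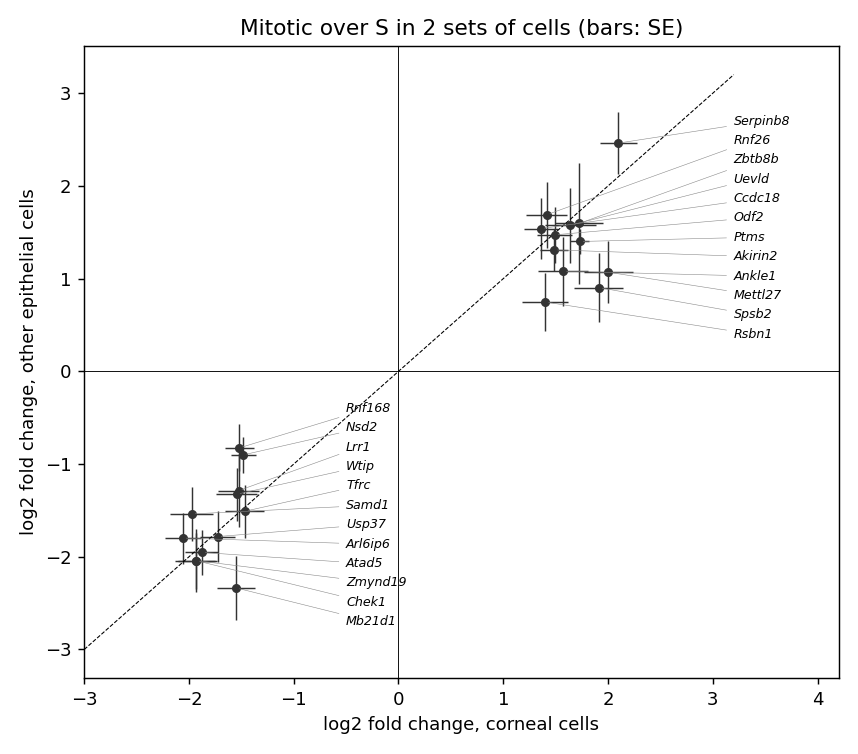
Log2 fold change of mitotic over S in corneal cells (x axis) and in the other epithelial cells (y axis) for the 24 largest genes, with bars for the standard error and a dashed line where the values are equal. All 24 lie in the same direction in both sets.

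The difference of the state effect between the 2 sets was tested by itself. Of 10381 genes 17 (0.164%) had an adjusted p under 0.05, none of them among the 24 largest. In simulated data this test found 5% of 200 genes whose effects differed by 1 on the log2 scale. The spread of the simulated counts was set and not estimated, so this share does not give the power of the test here. A gene without a call is not shown to behave alike in both sets. With cells matched on total UMIs 6 genes were called, 3 of them (Krt19, S100a8 and 2610528A11Rik) among the 17. The 17 were singled out by this test, after their values were seen. They held 8 genes of the cycle list, 6 of them histones, and 9 others. Sox9, the factor in the title of the series, stood in corneal cells at 84.6 CPM in S and 102 CPM in mitotic cells of library 1 and 54.6 and 82.6 CPM in library 2, and in the other cells at 78.1 CPM in S and 263 CPM in mitotic cells of library 1 and 79 and 168 CPM in library 2. Its log2 fold change was 0.40 (SE 0.13, adjusted p = 0.0191) in corneal cells, and the effect in the other cells was larger by 1.02 (adjusted p = 0.0127), or by 0.99 (adjusted p = 0.183) in the cells matched on total UMIs. Kdm5b, a demethylase of histone H3 lysine 4, stood in corneal cells at 41.7 CPM in S and 84.3 CPM in mitotic cells of library 1 and 31.9 and 68.4 CPM in library 2, and in the other cells at 74.1 CPM in S and 73.5 CPM in mitotic cells of library 1 and 69.1 and 61.2 CPM in library 2. The effect in the other cells was lower by a log2 value of -1.15 (adjusted p = 0.0176), or -1.27 (adjusted p = 0.0981) in the matched cells. The linker histone Hist1h1b stood in corneal cells at 1382 CPM in S and 539.7 CPM in mitotic cells of library 1 and 1430.0 and 760.0 CPM in library 2, and in the other cells at 925 CPM in S and 642 CPM in mitotic cells of library 1 and 1323 and 1163 CPM in library 2, a difference of 0.78 (adjusted p = 0.000139), or 0.57 (adjusted p = 0.95) in the matched cells. None of these 3 was called in the matched cells.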

How the data were processed

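The deposited matrix holds whole-number UMI counts per gene and barcode, with 3.1.0 as the software version named per the file headers. The submitters' processing notes name Cell Ranger 3.1.0, Seurat 5.0.0 and builds GRCm38 and mm10, with no roles. How the libraries were aggregated is not given in the sources used here. Barcode suffixes 1 and 2 were taken as libraries, of 3458 and 3294 barcodes, and 5 barcode sequences occurred in both, 0 among the members. Doublets were not called. S and mitotic cells captured together could fall among the both-sum cells or, where 1 sum led 3-fold, in the state of that sum.

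Counts were summed per library and state and tested with edgeR 4.0.16 (quasi-likelihood, robust, TMM, filterByExpr) in R 4.3.3, with Benjamini-Hochberg adjustment. The library was the block because both states of a library come from the same cell suspension. DESeq2 1.42.0 was an alternative. On simulated data the corneal fit recovered 71% of 200 genes changed by 1 on the log2 scale, and 3% at 0.5, with 7 and 3 false calls. The spread of the simulated counts was set beforehand and not estimated from these libraries.

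Members and lists were chosen with earlier results of these data known. Genes were named by rule: outside the cycle and other lists, the 12 largest per direction among called genes with at least 20 CPM whose sign was alike in the 2 libraries, leaving out 21 unnamed models; of each list up to 3 called members per direction with at least 20 CPM; of the cycle 4 per direction. The text names a subset of these 160, picked after their values were seen, and 1 gene that the rule names is not reported here and is left out of the counts of named genes under alternatives. Matching on the Krt14 share, in 270 and 150 cells of library 1 and 214 and 538 of library 2 (S and mitotic), was added after seeing the data. Promoters are RefSeq's, 1 per gene.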

Additional observations from a re-analysis of the deposited data

Results flagged for a closer look

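For 17 genes the difference between mitotic and S cells differed between the corneal and the other epithelial cells, by edgeR's quasi-likelihood test of that difference (adjusted p under 0.05, 2 libraries). Values are the log2 fold change in the other cells minus that in corneal cells. With cells matched on total UMIs, 3 of the 17 were called (Krt19, S100a8 and 2610528A11Rik) and 14 were not. The difference was positive for the histones Hist1h3c (1.42), Hist2h2ac (1.25), Hist1h2ae (0.803), Hist1h1b (0.776), Hist1h1e (0.713) and Hist1h2ap (0.705), and for the spindle gene Dlgap5 (1.4). Hist1h1b, Hist1h1e, Hist1h2ae, Hist1h2ap and Hist2h2ac were called higher in S among corneal cells. Histone genes are near-identical copies whose reads the counting could split, so single members are uncertain. It was negative for cyclin D1, Ccnd1 (-0.567).

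Outside the cycle list it was positive for Krt19 (1.48), Sox9 (1.02), Atf3 (0.953), Cd24a (0.945), Nfib (0.839) and Tmem176b (0.754), and negative for Kdm5b (-1.15), S100a8 (-0.938) and 2610528A11Rik (-0.58). Krt19 stood at 3.54 to 20.3 CPM in the corneal sums and at 126 to 367 CPM in the others. Cd24a and Nfib were called higher in S among corneal cells (-0.46 and -0.43), and Cd24a was called higher in mitotic cells among the others (0.49). S100a8 stood at 126 and 140 CPM in library 1 and at 4.96 and 4.37 CPM in library 2 of the corneal sums. The other epithelial cells are a mixture with Krt12 shares up to 0.8, and the part of its makeup in these differences was not tested.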

How the results depend on the processing

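Genes higher in mitotic and in S cells numbered 808 and 1259, and 193 and 287 with DESeq2, 450 and 640 with a stricter state rule (sums of at least 8, a lead of 5-fold), 174 and 215 with no replicate block, and 1327 and 922 without TMM. All 480 DESeq2 calls and all 389 calls without the block were among the calls reported, with the same sign. Members of the fixed lists outside the cycle called toward mitotic and S cells numbered 85 and 282, against 17 and 68 with DESeq2, 50 and 144 with the stricter rule, 3 and 21 without the block, and 161 and 172 without TMM. The 17 differences between corneal and other cells became 6 with cells matched on total UMIs, 3 of them shared. Of 1595 tested values, under alternatives, of the 114 genes reported here, 1408 kept direction and call and 187 kept their direction but lost the call. The cause was not tested. Calls were lost most often without the block (70 genes) and with DESeq2 (50). With 1 library left out there are no residual degrees of freedom, so values only were compared: 11 moved and 0 reversed. These genes were chosen with the same sign in both libraries, so 0 reversed was fixed by that choice. A move was judged against the spread between the same 2 libraries, so few values could move. Neither count is a test of how stable the values are. In simulated data at these depths 3% of differences of 0.5 on the log2 scale were recovered. The spread of the simulated counts was set and not estimated, so this share does not give the power of the fit. Here 79 of 80 cytosolic ribosomal proteins were called at a median of -0.24, but small differences can still be missed.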
